A study of Homo sapiens with 20 samples.

Results

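Cohesin sites of RPE-1 cells that had no counterpart in CHM13 cells were examined. RPE-1 is a retinal pigment epithelial line and CHM13 is a line from a complete hydatidiform mole, a growth whose genome comes from sperm alone, and both were immortalised with hTERT. No treatment or genetic change separated the groups. Chromatin immunoprecipitation with sequencing (ChIP-seq) was performed for the cohesin subunits RAD21, SA1 and SA2 in 2 replicates of RPE-1 and 3 replicates of CHM13, beside input libraries of total chromatin, which made 20 libraries. The deposited peak lists pooled the replicates into 1 list of reference peaks per subunit, line and genome build, and held positions without heights, counts or depths. The study also lists average coverage tracks per subunit and line, which were not used here. The peak lists therefore give no depth behind a peak, and no spread between replicates could be measured from them.

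The overlapping peaks of the 3 RPE-1 lists on chromosomes 1 to 22 and X of hg38 merged into 17458 regions. Of these, 476 shared no base with a peak of any CHM13 list (2.73% of all RPE-1 regions). They are called absent regions below, in the sense that no CHM13 peak was listed there, and the remaining 16982 are called the other RPE-1 regions. The absence from CHM13 chose the members, so it is a description and was not tested. RPE-1 had 14998 RAD21, 10724 SA1 and 6416 SA2 peaks in its hg38 lists against 73881, 38284 and 44503 in CHM13. The lines also differed in sequencing depth, with more reads listed by the study for the CHM13 immunoprecipitates than for those of RPE-1 in all but 1 library. They differed further in the number of replicates, in the RAD21 antibody, in the sonicator and in the Drosophila chromatin added to CHM13 samples only, and the part of these differences in the absence of a peak cannot be told apart from that of the cell line. Intervals are 95% Wilson intervals for a share and 95% Newcombe intervals for a difference between shares, and they cover counting error over regions only.

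Cohesin is a ring of SMC1, SMC3 and RAD21 that holds DNA, with SA1 or SA2 bound to RAD21. It joins sister chromatids and extrudes chromatin loops, which halt where CTCF is bound, so that many cohesin peaks in interphase cells lie on CTCF motifs. CTCF binding at some sites is blocked by CpG methylation. The best known case lies upstream of H19, where CTCF occupies the unmethylated maternal copy and not the methylated paternal copy.

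Sequences of absent regions are shown first, read from hg38 5′ to 3′. The first set holds 7 of the 8 absent regions with a peak in all 3 RPE-1 lists and a match to the CTCF core CCANNAGNNGGC, searched on both strands, and it shows the motif at the sites with the broadest support in RPE-1. The C2orf27A region among them had 3 near-identical copies in hg38 and lay 652 bp from a CHM13 peak. Capitals mark the core, and each line is written on the strand of the match.
chr1:48572819-48572858 plus strand, in an intron of AGBL4: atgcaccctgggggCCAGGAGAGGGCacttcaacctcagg
chr2:131674110-131674149 plus strand, in an intron of C2orf27A: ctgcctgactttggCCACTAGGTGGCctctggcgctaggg
chr3:96331514-96331553 plus strand, intergenic, nearest start EPHA6: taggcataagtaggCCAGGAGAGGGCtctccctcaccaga
chr3:139562275-139562314 minus strand, in an intron of NMNAT3: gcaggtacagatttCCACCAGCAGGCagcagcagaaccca
chr3:168467515-168467554 minus strand, in an intron of EGFEM1P: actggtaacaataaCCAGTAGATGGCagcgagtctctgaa
chr6:101227049-101227088 minus strand, in an intron of GRIK2: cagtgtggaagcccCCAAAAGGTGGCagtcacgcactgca
chr10:90288839-90288878 plus strand, intergenic, nearest start HTR7: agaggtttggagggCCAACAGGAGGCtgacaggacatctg

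The second set is the pair of absent regions in the annotated H19 gene, shown because both carried the same CpG-containing form of the core, CCGCNNGGNGGC, in capitals. Over the 52 bases shown, the pair had 49 identical and 3 different bases.
H19, chr11:1999950-2000001 minus strand: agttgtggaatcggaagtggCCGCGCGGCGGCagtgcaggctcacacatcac
H19, chr11:2003001-2003052 minus strand: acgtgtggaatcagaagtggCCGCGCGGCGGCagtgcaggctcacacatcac

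The third set is the middle of the absent regions beside MITF, the master transcription factor of pigment cells, and of the one next to the start of NALF1. None of these 3 regions held a CTCF core, and no letters are in capitals.
MITF, chr3:69691235-69691384 plus strand: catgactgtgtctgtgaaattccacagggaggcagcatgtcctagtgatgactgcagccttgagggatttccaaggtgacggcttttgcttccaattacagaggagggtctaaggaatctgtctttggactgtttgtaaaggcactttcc
MITF, chr3:69792195-69792344 plus strand: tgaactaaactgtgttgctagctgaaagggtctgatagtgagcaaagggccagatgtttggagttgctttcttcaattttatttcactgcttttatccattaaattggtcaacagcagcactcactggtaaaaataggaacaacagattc
NALF1, chr13:107868334-107868453 plus strand: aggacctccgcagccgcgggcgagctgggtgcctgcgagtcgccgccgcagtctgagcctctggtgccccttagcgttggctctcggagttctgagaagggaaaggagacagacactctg

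The fourth set is from alpha-satellite DNA, the tandem repeat of human centromeres, at the 3 absent alpha-satellite regions held by more than 1 list. Capitals mark a match to the CENP-B box TTCGNNNNANNCGGG, the motif bound by the centromere protein CENP-B.
chr1:123790463-123790501 plus strand: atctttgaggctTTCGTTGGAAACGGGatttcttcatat
chr12:35030740-35030778 plus strand: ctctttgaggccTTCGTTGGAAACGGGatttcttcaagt
chr19:26966145-26966183 plus strand: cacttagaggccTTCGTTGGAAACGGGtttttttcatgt

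Most absent regions were seen with a single subunit. RAD21 alone marked 259 of the 476, SA1 alone 74 and SA2 alone 9, so 342 lay in 1 list. The remaining 134 lay in 2 or more lists, namely 70 with RAD21 and SA1, 10 with RAD21 and SA2, 6 with SA1 and SA2 and 48 with all 3 subunits. Absence was found for 4.42% of RPE-1 regions in 1 list, 1.38% of those in 2 or more lists and 0.991% of those in all 3 lists. Regions in 2 or more lists made up 28.2% of absent regions (95% interval 24.3 to 32.4) and 56.4% of the other RPE-1 regions (55.7 to 57.2), a difference of -28.3 percentage points (-32.2 to -24.0). By subunit, absence was found for 2.59% of regions with a RAD21 peak, 1.85% of those with an SA1 peak and 1.14% of those with an SA2 peak.

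**Figure D1:**
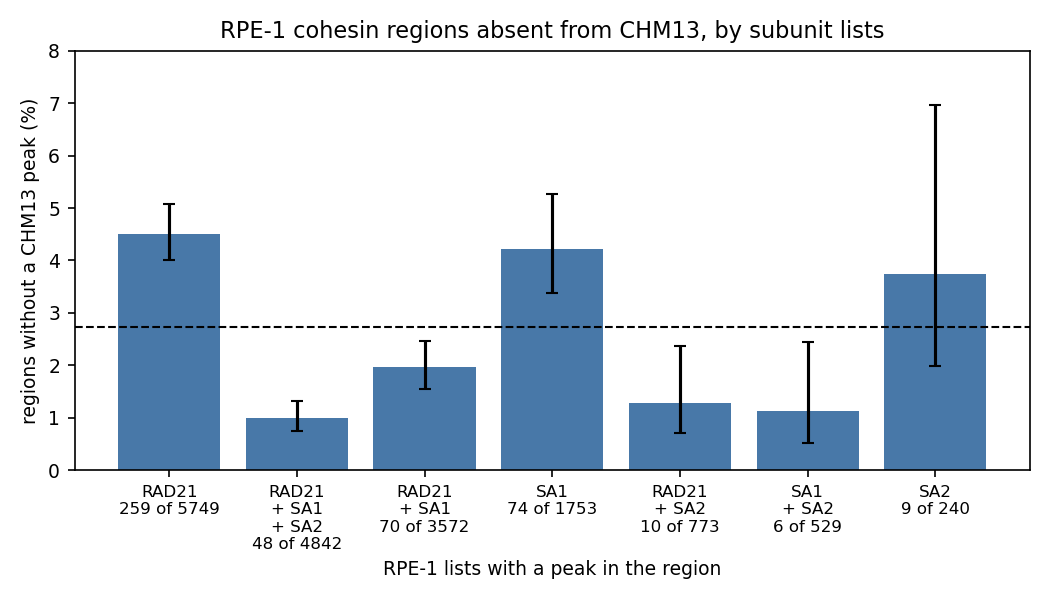
Share of RPE-1 cohesin regions without a CHM13 peak (percent, bars with 95% Wilson intervals) for each combination of RPE-1 lists with a peak in the region, with the number absent of the number of regions under each bar. The dashed line is the share over all regions, 2.73%; the 3 combinations of a single list lie above it, at 4.51%, 4.22% and 3.75%, and the 4 combinations of several lists lie below, between 0.991% and 1.96%.

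Absent regions were narrower than the other RPE-1 regions. Their width ran from 228 to 1179 bp with a median of 367.5 bp, against a median of 440 bp for the others. Among regions in 2 or more lists the medians were 451 bp and 488 bp. The share absent was 6.96% for regions of 200 to 300 bp, 4.15% from 300 to 400 bp, 2.03% from 400 to 500 bp, 1.11% from 500 to 600 bp and 1.34% at 600 bp or more. Width and the number of lists were read from the same RPE-1 peaks that defined the regions, and with no heights in the lists they are the only measures of peak size. Within the 48 absent regions of all 3 lists, the RAD21 peak was 374 to 846 bp wide (median 475.5 bp), the SA1 peak 296 to 787 bp (median 418.5 bp) and the SA2 peak 248 to 532 bp (median 333 bp).

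The distance to CHM13 peaks was measured as a description, since the rule used the same peaks. The nearest CHM13 peak lay 128 to 1441830 bp away with a median of 62310.5 bp. It was more than 1000 bp away for 466 of the 476 regions, more than 10000 bp for 384 and more than 100000 bp for 175. For regions in 2 or more lists the median was 88482 bp, and 64 of 134 were more than 100000 bp from a CHM13 peak. The absent regions nearest to a CHM13 peak lay 128, 473, 474, 486 and 532 bp away. Just outside the rule, the region sharing fewest bases with a CHM13 peak shared 70 bp of its 831 bp, on chromosome 21, and the next 4 were narrow regions of 221 to 224 bp covered along their whole length.

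The absent regions of 2 or more lists farthest from CHM13 peaks, chosen after their values were seen, lay before AUTS2, a gene of neuronal development. At chr7:69067420-69067759, 530537 bp from the AUTS2 start, RAD21 and SA1 peaks of 340 and 269 bp stood 1441830 bp from a CHM13 peak. In the same interval free of CHM13 peaks, RAD21 and SA2 peaks of 555 and 247 bp lay at chr7:68706201-68706755. The farthest region with all 3 subunits was at chr6:93779057-93779508, 967835 bp from a CHM13 peak, with EPHA7, an ephrin receptor gene, as the nearest coding start.

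Every chromosome examined held absent regions, in unequal shares. Chromosome 13 had the highest share, 29 of 397 regions or 7.30% (5.13 to 10.3), and chromosome 16 the lowest, 5 of 512 or 0.977% (0.418 to 2.27). Chromosome 3 held the greatest number, 52 of 1167 or 4.46% (3.41 to 5.80). Chromosomes 8 and 9 had 4.77% (3.50 to 6.48) and 4.06% (2.86 to 5.74), and chromosome 4 had 3.88% (2.81 to 5.35). The intervals of these 5 chromosomes with high shares lay above the 2.73% of all regions, while those of chromosomes 11, 15, 16 and 19 lay below it, at 1.46%, 1.30%, 0.977% and 1.39%. Chromosome 13 was also sparse in other RPE-1 regions, with 3.76 per Mb against 9.72 per Mb on chromosome 19. The intervals were not adjusted for the number of chromosomes compared. Of the 30 absent regions of chromosome 9, 7 lay in alpha-satellite DNA, where the position of a peak is uncertain. The share of chromosome 9 without alpha-satellite regions was not computed.

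**Figure D2:**
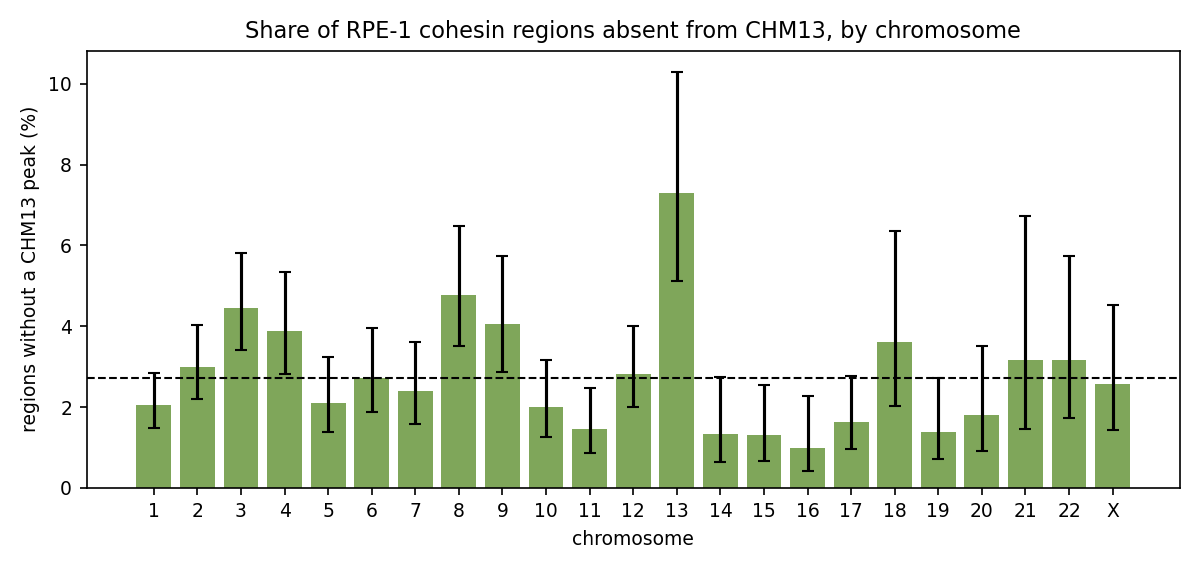
Share of RPE-1 cohesin regions without a CHM13 peak (percent, bars with 95% Wilson intervals) on chromosomes 1 to 22 and X, with the share over all regions, 2.73%, as a dashed line. Chromosome 13 stands highest at 7.30% and chromosome 16 lowest at 0.977%.

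Another absent region lay within 100 kb of 18.1% of absent regions, at densities of 0.0611 to 0.296 absent regions per Mb by chromosome. Whether this share departs from what such low densities give was not tested. Joining absent regions closer than 100 kb gave 41 clusters with 86 regions in all, and the largest held 4. It spanned chr8:6258501-6374892, an interval without a coding gene before MCPH1, the gene of microcephalin, with 2 RAD21 regions and 2 regions of all 3 subunits and no other RPE-1 region inside. A cluster of 3 at chr7:124101273-124171490 had SA1 in each region and RAD21 in 1 of them. Another of 3 at chrX:151680841-151753813 covered PRRG3, FATE1 and CNGA2, a gene for a subunit of the olfactory cyclic nucleotide-gated channel, and had RAD21 in each region and SA1 in 1. Among the pairs, the tightest were at chr7:95686161-95688053 and chr2:211033774-211035928, picked by span after the clusters were listed.

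At a join distance of 1 Mb the largest groups, chosen after their values were seen, had 10 absent regions each. One at chr3:138329191-140553335 ran from NME9 to CLSTN2, a synaptic adhesion gene of the calsyntenin family, with 4 of its regions in 2 or more lists and 13 other RPE-1 regions inside. The other at chr13:68234330-72566266 covered a gene-poor stretch of 4.33 Mb near PCDH9, KLHL1 and DACH1, with 3 regions in 2 or more lists. Only 4 other RPE-1 regions lay inside that stretch, so absent regions outnumbered them.

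Absent regions more often lay far from protein-coding gene starts. More than 100 kb from a protein-coding gene start lay 266 of 476 absent regions or 55.9% (51.4 to 60.3), against 23.2% of the others (22.6 to 23.9), a difference of 32.6 points (28.1 to 37.1). In regions of 2 or more lists the shares were 62.7% and 23.6%, a difference of 39.1 points (30.6 to 46.9). Median distance to a coding start was 128735 bp for absent regions and 33692 bp for the others. The pattern held with noncoding genes counted: 18.3% of absent regions and 4.33% of the others were over 100 kb from the start of any annotated gene, a difference of 13.9 points (10.7 to 17.7).

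**Figure D3:**
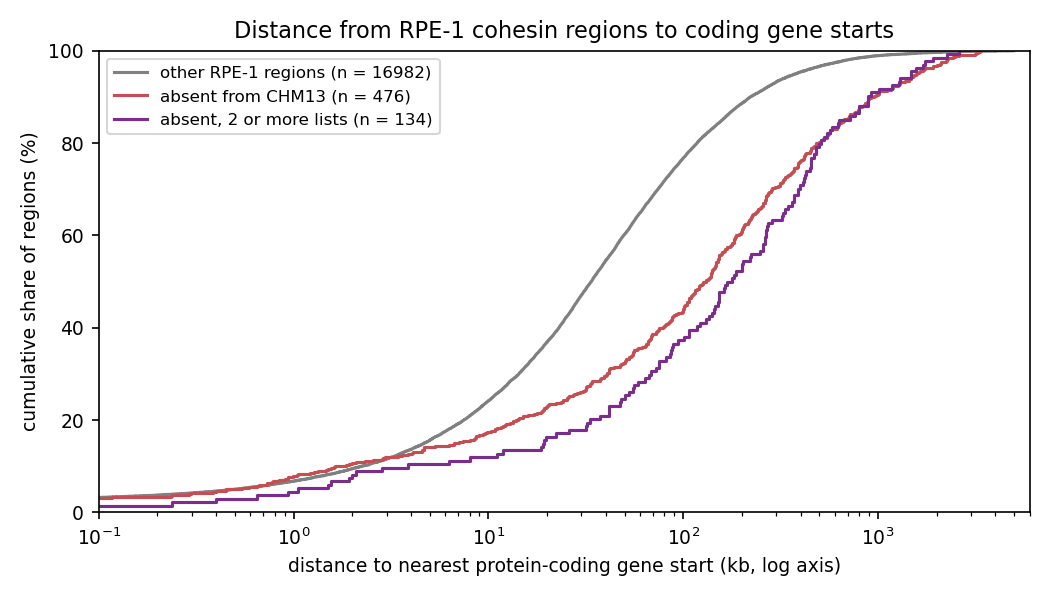
Cumulative share of regions (percent) against distance to the nearest protein-coding gene start (kb, log axis) for other RPE-1 regions (grey), absent regions (red) and absent regions of 2 or more lists (purple). The curves of absent regions run to the right, with medians of 128735 bp for all 476 and 172827.5 bp for the 134 in 2 or more lists, against 33692 bp for the others.

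The centre of an absent region was intergenic in 46.0% and in an intron of a coding gene in 30.5%, against 38.1% and 40.2% of the others. Introns of noncoding genes held 17.0% of absent and 11.2% of other regions, a difference of 5.77 points (2.62 to 9.44), and for regions of 2 or more lists 12.6 points (6.04 to 20.6). Untranslated regions held 1.89% and 4.20%, and coding exons 1.89% and 1.98%. The lower share in coding introns had an interval of -13.7 to -5.36 points, and that of coding exons included 0.

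Close to coding starts no difference was detectable. Within 1 kb of a coding start lay 38 absent regions, 7.98% (5.87 to 10.8), and 6.78% of the others (6.41 to 7.17), a difference of 1.21 points (-0.942 to 4.01). With the starts of all annotated genes the shares were 15.3% and 12.3%, a difference of 3.03 points (0.0281 to 6.58). All 38 had a RAD21 peak and 32 had RAD21 alone. The share with RAD21 alone was 84.2% (69.6 to 92.6) among absent regions at starts and 60.4% (57.5 to 63.2) among other RPE-1 regions at starts, a difference of 23.8 points (8.94 to 32.6). RAD21 alone was also more common among absent regions wherever they lay, at 54.4% against 32.3% of the others. The 38 regions had a median of 7.43 CpG per 100 bp and the other RPE-1 regions at starts 6.24, against 0.842 and 1.05 for regions more than 100 kb from a start, so regions at starts were CpG-rich in both sets. The antibody to RAD21 differed between the lines, and its part in this result was not tested.

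The 6 absent regions at starts with 2 or more lists lay at 6 different genes. GRIN2A, for a subunit of the NMDA glutamate receptor, had RAD21, SA1 and SA2 peaks of 631, 589 and 424 bp at chr16:10181359-10181989, and the nearest CHM13 peak was 74809 bp away. NALF1, for an auxiliary factor of the NALCN sodium leak channel, had peaks of 502, 461 and 284 bp at chr13:107868143-107868644, and no CHM13 peak within 217564 bp. These were the start-proximal regions of all 3 lists with the widest empty surroundings in CHM13. At SOX15, a transcription factor gene of the SOX family, the peaks were 430, 331 and 279 bp wide at chr17:7589264-7589693, and a CHM13 peak stood only 1099 bp away. CLSTN2 had RAD21 and SA1 peaks of 407 and 330 bp at chr3:139934541-139934947, and the nearest CHM13 peak was 2674 bp away. PCDHGB7, one of the clustered protocadherins of neuronal cell identity, had RAD21 and SA1 peaks of 577 and 496 bp over its start at chr5:141417381-141417957. The nearest CHM13 peak was 2712 bp away, and the interval without a CHM13 peak around it was only 6993 bp. RPRM, a p53-induced inhibitor of the cell cycle, had RAD21 and SA2 peaks of 394 and 273 bp over its start at chr2:153478687-153479080, and the nearest CHM13 peak was 39991 bp away. None of the 6 contained a CTCF core.

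Examples with RAD21 alone, picked after their values were seen, included the starts of DNMT3A, a de novo DNA methyltransferase gene, EOMES, a T-box factor gene, DRD1, the dopamine D1 receptor gene, CHRM3, a muscarinic receptor gene, CA2, the carbonic anhydrase 2 gene, and CNGA1, a gene of the rod cyclic nucleotide-gated channel. At DNMT3A the peak was 407 bp wide and 32576 bp from a CHM13 peak. At EOMES it was 316 bp wide, 8978 bp from a CHM13 peak, and had 12.7 CpG per 100 bp, the highest value among the absent regions at starts. The protocadherin alpha gene PCDHA13 also had a RAD21 peak of 337 bp over its start.

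The widest absent region of all 3 lists was at chr8:52941175-52942020, in the untranslated part of NPBWR1, a neuropeptide receptor gene. Its RAD21, SA1 and SA2 peaks were 846, 451 and 294 bp wide, and the nearest CHM13 peak was 6976 bp away. The next, at chr3:36124127-36124913 and 255590 bp from the start of STAC, was widest for SA1, with RAD21, SA1 and SA2 peaks of 662, 787 and 420 bp. At chr17:74379337-74379980, 11879 bp from GPR142, a G protein-coupled receptor gene, the peaks were 644, 469 and 395 bp. A second, RAD21-only region of 489 bp lay 732 bp from the GPR142 start and held a CTCF core 11.5 bp from its centre.

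A further 3 of the 10 widest lay in introns of coding genes. ABLIM1, an actin-binding LIM protein gene, had peaks of 565, 471 and 532 bp in an intron at chr10:114703507-114704103. ATRNL1, an attractin-like gene, had peaks of 597, 437 and 397 bp at chr10:115417490-115418086. The region in GRIN2A described above was the fifth widest.

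The other 4 were far from starts. At chr2:146927160-146927802 the peaks were 637, 548 and 333 bp, 916715 bp from ACVR2A, an activin receptor gene. At chr13:81061258-81061851 they were 559, 324 and 343 bp, 720132 bp from SPRY2, an inhibitor of receptor tyrosine kinase signalling. At chr3:96331331-96331891 they were 561, 384 and 296 bp, 531182 bp from a CHM13 peak, with the CTCF core shown above. At chr3:139562016-139562570, inside NMNAT3, an NAD synthesis gene, they were 523, 549 and 338 bp. There the CTCF core shown above lay 1.5 bp from the centre, and the nearest CHM13 peak was 133965 bp away.

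Genes with most absent regions inside were long. CLSTN2 held 4 in 642213 bp, 1 of them in 2 or more lists, beside 1 other RPE-1 region. ABLIM1 held 3 and ZNF385D 3, each with 2 in 2 or more lists. MDGA2, a gene for a membrane protein of synapses, held 3, and TSPAN8, a tetraspanin gene, held 2, both in 2 or more lists. GRIN2A, KLHL29, SLC2A13 and SOX5, noticed after the counts were made, held 2 each and no other RPE-1 region, so every RPE-1 cohesin region in these genes was absent from CHM13.

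The CTCF core was less common in absent regions. It was found in 91 of 476 or 19.1% (15.8 to 22.9) and in 33.1% of the others (32.4 to 33.8), a difference of -14.0 points (-17.4 to -10.2). In regions of 2 or more lists it was found in 19 of 134 or 14.2% (9.27 to 21.1) against 33.6%, a difference of -19.4 points (-24.4 to -12.4). In windows of the same length 10 kb to either side, it was found in 1.16% for absent regions and 1.68% for the others, so both sets held it far more often than their surroundings. Where present, it lay a median of 28 bp from the centre of absent regions and 27 bp from the centre of the others. With 1 letter of the core allowed to differ, the shares were 67.4% and 83.8%, a difference of -16.4 points (-20.8 to -12.3). Within width classes, the difference was -12.7 points (-17.5 to -6.80) for regions of 300 to 400 bp and -13.3 points (-19.4 to -5.30) for those of 400 to 500 bp. Its interval included 0 for regions of 200 to 300 bp, at -7.36 points (-15.1 to 2.86), and of 500 to 600 bp, at -6.89 points (-18.9 to 8.62). At 600 bp or more, 0 of 20 absent regions held the core (0 to 16.1%), against 36.1% of the others.

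**Figure D4:**
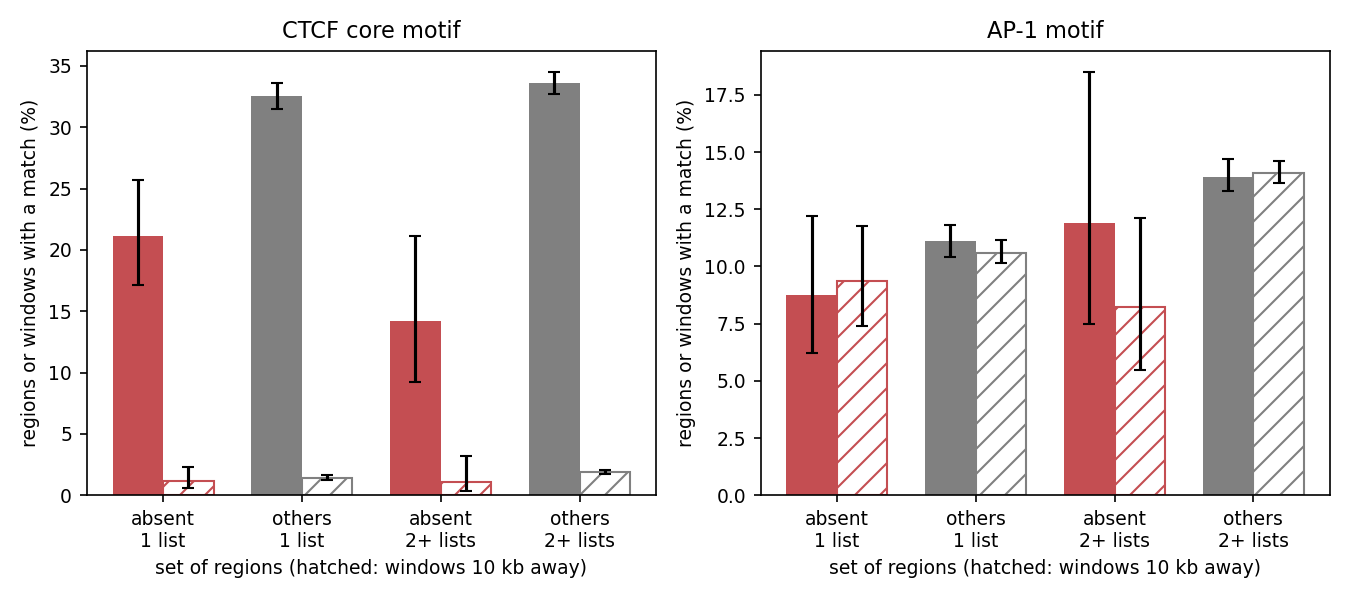
Share of regions (filled bars) and of same-length windows 10 kb away (hatched bars) with a match to the CTCF core (left) or the AP-1 motif (right), in percent with 95% Wilson intervals, for absent (red) and other (grey) RPE-1 regions in 1 list and in 2 or more lists. The CTCF core stands at 21.1% and 14.2% in absent regions and at 32.5% and 33.6% in the others, while AP-1 is at 8.77% and 11.9% in absent regions and at 9.37% and 8.21% in their windows, with overlapping intervals.

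The cores of absent regions held fewer CpG. Among regions with a core, a CpG in the core or at its next base was found in 21 of 91 or 23.1% (15.6 to 32.7) of absent regions and 35.2% of the others (34.0 to 36.5), a difference of -12.2 points (-19.7 to -2.45). Over whole regions, the median was 1.15 CpG per 100 bp in absent regions and 1.42 in the others, and 0.807 and 1.38 in regions of 2 or more lists. Median GC content was 45.8% and 47.1%. The CpG-containing core seen at H19, searched for after those regions were seen, was found in 12 absent regions or 2.52% and in 2.51% of the others, and 0 of 951 windows beside absent regions held it. All 12 had RAD21 alone, as did 54.4% of all absent regions. Of the 426 other RPE-1 regions with this core, 209 lay in 2 or more lists.

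AP-1 and TEAD motifs, which mark many enhancers of adherent cells, were not more common in absent regions. The AP-1 motif TGANTCA was found in 9.66% of absent regions and 12.7% of the others, a difference of -3.03 points (-5.43 to -0.0054) at the edge of its interval. In the windows it was found in 9.04% and 12.6%, close to the shares in the regions. In absent regions of 2 or more lists it was found in 11.9% and in their windows in 8.21%, and the difference between regions and windows was not tested. The TEAD motif GGAATG was found in 20.4% and 24.1%, a difference of -3.68 points (-7.12 to 0.219).

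Alpha-satellite DNA held more than its share of absent regions. A region was counted there when at least 20 CENP-B boxes lay within 5 kb of its centre. Of 87 such RPE-1 regions, 26 were absent from CHM13, which is 5.46% of absent regions (3.75 to 7.88) against 0.359% of the others (0.280 to 0.461), a difference of 5.10 points (3.39 to 7.53). All 6 alpha-satellite regions of chromosome 12 were absent, 7 of 14 on chromosome 9, 4 of 18 on chromosome 1, 4 of 20 on chromosome 19 and 0 of 8 on chromosome 5. RAD21 was present in 21, SA2 in 8 and SA1 in 0 of the 26, while SA1 was present in 15 of the 61 others. These arrays are modelled sequence in hg38 and reads can match many copies, so the exact position of such a peak is uncertain.

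Sequence comparison among absent regions with blastn found further families. A group of 9 on 8 chromosomes, with a median identity of 75.7% over aligned stretches, held the CTCF core in 5. Like sequences occurred in 39 other RPE-1 regions and in 204 CHM13 regions, so 18.8% of the RPE-1 regions found for this family were absent. The more common family of 15 absent regions, with 1628 other RPE-1 regions alike, had a share of 0.913%. Over the 10 groups found, the shares ran from 0.913% to 100%. Each family was built from at least 3 absent regions, which by itself raises its absent share. These shares are therefore descriptions and cannot be compared with the 2.73% of all RPE-1 regions. The cores and flanks of the 5, aligned on the core in capitals, are shown because they were alike in the flanks as well as in the core.
chr3:94862862-94862913 plus strand: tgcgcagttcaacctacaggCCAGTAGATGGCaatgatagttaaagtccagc
chr4:23614694-23614745 minus strand: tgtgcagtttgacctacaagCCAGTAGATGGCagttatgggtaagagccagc
chr5:104413060-104413111 minus strand: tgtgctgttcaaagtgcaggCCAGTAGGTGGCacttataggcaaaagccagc
chr7:144178561-144178612 plus strand: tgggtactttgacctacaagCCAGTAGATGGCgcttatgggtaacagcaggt
chr18:42596363-42596414 plus strand: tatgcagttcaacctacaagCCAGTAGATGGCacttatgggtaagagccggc

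A near-identical second copy in hg38 was found for 30 of 476 absent regions, or 6.3%, and for 4.19% of the others. The difference was 2.12 points (0.237 to 4.68), and 1.52 points (-1.18 to 6.7) in regions of 2 or more lists. In regions of all 3 lists it was found for 5 of 48, or 10.4%, against 3.9%. The regions of 4 near-identical copies on chromosome 9 were at least 99.1% identical and each lay in 2 or more lists. They had no other RPE-1 region like them, though 7 CHM13 regions were alike in sequence elsewhere. The middle of one is chr9:39721186-39721305 plus strand, in an intron of GLIDR, and it is shown because reads from copies this alike are hard to place.
Copy on chromosome 9: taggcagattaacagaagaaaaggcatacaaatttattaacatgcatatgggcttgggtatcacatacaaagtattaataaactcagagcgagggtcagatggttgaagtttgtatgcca

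Genes of the pigment epithelium, the cell type named in the RPE-1 labels, were among those near absent regions. An absent region lay inside or within 50 kb of 4 of 18 listed genes, or 22.2%, against 429 of 19970 coding genes, or 2.15%. MITF had 2 such regions, both with all 3 subunits. At chr3:69691040-69691580, 47876 bp before the MITF start, the RAD21, SA1 and SA2 peaks were 541, 422 and 361 bp wide. This region belonged to the common sequence family of 15 absent regions described above. That family had 1628 other RPE-1 regions and 10407 CHM13 regions alike. At chr3:69792041-69792499, in an MITF intron, the RAD21, SA1 and SA2 peaks were 449, 444 and 328 bp wide. Both lay in 1 interval of 276576 bp without a CHM13 peak, 19461 and 120462 bp from the nearest CHM13 peak.

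The other 3 genes had RAD21 alone. LRAT, which esterifies retinol in the visual cycle, had a 400-bp peak over its start at chr4:154626717-154627116, with a CHM13 peak 3521 bp away. It lay near the edge of an interval of 156212 bp without a CHM13 peak. MERTK, the receptor kinase through which these cells take up shed photoreceptor tips, had a 474-bp peak 291 bp from its start at chr2:111897843-111898316, with a CHM13 peak 2435 bp away. SERPINF1, which encodes the secreted factor PEDF, had a 320-bp peak 47826 bp from its start, at chr17:1713884-1714203, with a CHM13 peak 3167 bp away. That region lay in an exon of the noncoding gene MIR22HG, and its nearest coding start was WDR81, at 2320 bp. RPE-1 regions shared with CHM13 lay at 16 of the 18 genes, or 88.9%, against 75.8% of all coding genes.

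Among 26 genes of extracellular matrix and adhesion, 1 or 3.85% had an absent region, COL5A1, a fibrillar collagen gene, with a 285-bp RAD21 peak. Among 24 genes of the TGF-beta, Hippo and AP-1 pathways it was 1 or 4.17%, JUNB, with a 337-bp RAD21 peak 25181 bp from its start. Of 18 trophoblast genes, 2 or 11.1% had an absent region, also above the 2.15% of all coding genes. TFAP2A, an AP-2 transcription factor gene, had a 420-bp RAD21 peak 712 bp from a CHM13 peak. KRT18, a keratin gene, had RAD21 and SA1 peaks of 425 and 282 bp, 1875 bp from a CHM13 peak. Of the 39 HOX genes, which sit side by side in clusters, 0 had an absent region, near the 2.15% of all coding genes, and all 39 had an RPE-1 region shared with CHM13. The lists were small and the counts are descriptions.

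**Figure D5:**
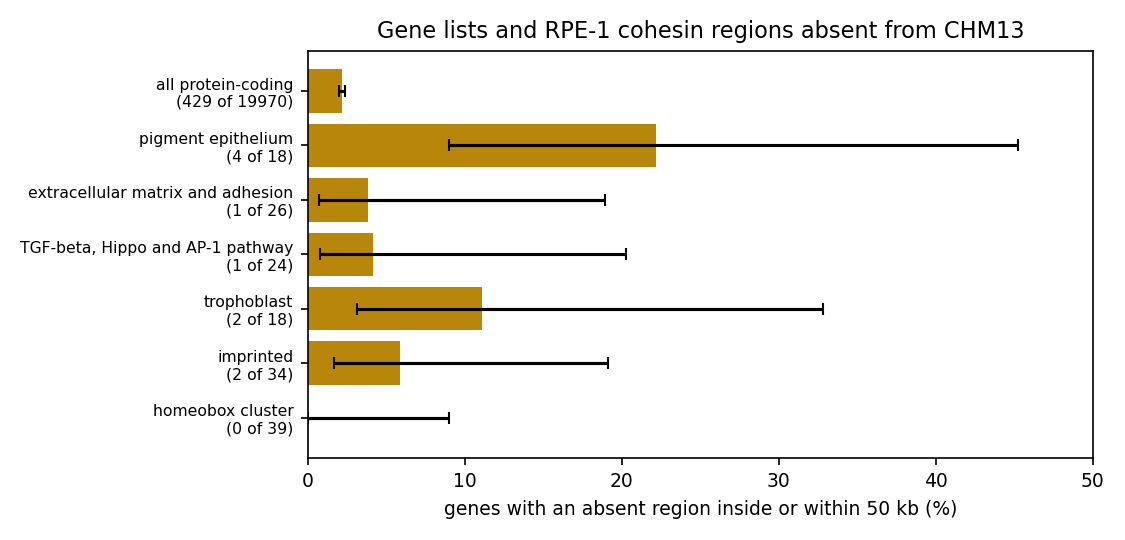
Share of genes with an absent region inside or within 50 kb (percent, bars with 95% Wilson intervals) in each list, with the number of genes beside each name. The pigment epithelium list stands at 22.2%, the trophoblast list at 11.1% and all coding genes at 2.15%, and the intervals of the small lists are wide.

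At imprinted loci, a list drawn up after values were seen, 2 of 34 genes in the annotation, or 5.88%, had absent regions, beside 2.15% of coding genes. Both were noncoding genes, for which that share is not a matched background. H19, the maternally expressed long noncoding RNA, had the pair of CpG-type CTCF cores shown above, under RAD21 peaks of 327 bp at chr11:1999768-2000094 and 456 bp at chr11:2002691-2003146. The nearest CHM13 peaks were 30299 and 33222 bp away, both regions lay in 1 interval of 67246 bp without a CHM13 peak, and neither had an SA1 or SA2 peak. PEG13, a paternally expressed noncoding gene within TRAPPC9, had a 557-bp RAD21 peak at chr8:140099043-140099599, 59900 bp from a CHM13 peak.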

How the data were processed

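RAD21, SA1 and SA2 were immunoprecipitated from RPE-1 (2 replicates) and CHM13 cells (3 replicates). Reads were mapped by the authors with bwa mem, secondary and supplementary alignments were removed with samtools, peaks were called in each replicate with macs2 (q 0.01), and replicates were pooled with GenomicRanges, keeping loci of at least 2 replicates. These steps are described for CHM13 v1.0, and hg38 is named in the labels. The 12 peak lists hold start and end positions in bp and no score, and the coverage tracks that the study lists were not used. Replicates cannot be separated in the lists.

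Overlapping peaks were merged with Python 3.11.15, pandas 2.3.3 and pysam 0.24.0. Genes came from GENCODE 44. Copies were found with minimap2 2.31 (at least 95% identity over 90% of length) and families with blastn 2.17.0 (e-value 1e-10, at least 3 regions). The region rule, motif search and intervals were tested on simulated data. Shares were compared by Newcombe intervals at 95%, without p-values.

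Members and gene lists were chosen with earlier results of these data known. Named were the 10 widest absent regions of all 3 lists, the 5 clusters with most regions, the 5 genes with most absent regions inside, regions of 2 or more lists within 1 kb of a coding start, and every hit of the gene lists. Items picked otherwise, and the sequences shown, were chosen after values were seen. Ties among clusters and genes were broken after values were seen. Soft-masked bases could not be counted, since the reference used was in capitals throughout.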

Additional observations from a re-analysis of the deposited data

How the results depend on the processing

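The 476 absent regions became 475, 466 and 384 when no CHM13 peak was allowed within 200 bp, 1 kb and 10 kb, and 613 on the CHM13 v1.0 lists. The number moved to 1194 and 1205 against the CHM13 SA1 or SA2 list alone, to 198 and 73 from the RPE-1 SA1 or SA2 list alone, and to 53 with RPE-1 peaks of at least 500 bp. The share in 2 or more lists was 66.7% among absent and 85.9% among other regions of at least 500 bp, a difference of -19.2 points (-31.9 to -8.58). The lower share of the CTCF core kept its direction and an interval without 0 in all alternatives (-19.4 to -13.0 points), as did the greater distance from coding starts (27.6 to 39.1 points) and the alpha-satellite share (2.94 and 2.04 points). The AP-1 difference turned to 0.357 points in fixed 200-bp windows, and its interval included 0 at -2.97 points (regions of 300 to 600 bp), -2.00 (2 or more lists), -3.04 (no CHM13 peak within 1 kb) and -2.50 (without alpha-satellite). The difference at coding starts was -0.104 points for 2 or more lists, -1.56 within 5 kb and 3.03 at starts of all genes, the last with an interval above 0. The share with a neighbour of the same set differed by -61.7 points within 100 kb, -17.5 within 10 kb and -40.9 within 1 Mb, a sign that the unequal numbers of regions fix, so these values say nothing about clustering. The cause was not tested. No paired analysis was possible because the lists pool the replicates, and for the same reason no replicate could be left out. The planned result and alternatives on soft-masked bases were not run.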
